A study of Rattus norvegicus with 9 samples.

Results

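The genes described here are 10 genes of the Wnt pathway, measured in lung fibroblasts of rat pups on postnatal days 2, 7 and 21. They are the ligands Wnt2, Wnt4 and Wnt5a, the receptors Fzd1 and Fzd2, the secreted modulators Sfrp1 and Dkk3, the intracellular genes Ctnnb1 and Lef1, and the target Axin2. A probe set, the group of short probes that reads 1 transcript region on an Affymetrix array, was taken where the platform annotation gave it only that gene's symbol. All 10 genes were found, on 20 of the 31042 probe sets tested, and the brightest probe set by mean log2 intensity over the 9 arrays represented each gene among 14217 genes in all. Fibroblasts were isolated on day 2, in the saccular stage before septation, on day 7, while secondary septa were growing, and on day 21, when septation had ended. Each day had 3 samples from litters numbered 1 to 3, each hybridised to its own array, and the labels do not say if litters with 1 number were shared between days. Cells were pooled over the pups of a litter, 5 of them on day 2 and 4 on days 7 and 21. No strain, sex, genotype or treatment is given in the labels, and lung cells that adhered to plastic within a short plating were kept, so other adherent cells can be among them.

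Wnt proteins are secreted, lipid-modified ligands that bind Frizzled receptors. In the canonical branch, binding to Frizzled and an LRP co-receptor frees beta-catenin, the product of Ctnnb1, from a destruction complex built on Axin, and beta-catenin then works with LEF and TCF factors at target genes such as Axin2. Other branches act through planar cell polarity proteins or calcium. In the developing lung of mice, Wnt2 comes from the mesenchyme and contributes to lung growth, and Wnt5a shapes the distal airspaces.

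The fibroblast marker list was bright as a whole on every array, though not in every gene. The mean log2 intensity of 16 such genes, among them Col1a1 and Col3a1, ranged from 10.71 to 11.04 on day 2, from 10.97 to 11.05 on day 7 and from 10.30 to 10.69 on day 21, against array medians of all probe sets between 5.24 and 5.66. The surface marker Thy1 was dim, at mean log2 intensities of 5.10, 4.97 and 4.98 on days 2, 7 and 21. Lists for other cell types also moved with age, and their part in the results below was not tested. The mean of 14 macrophage markers was 9.24 to 9.41 on day 2, 7.42 to 8.27 on day 7 and 9.61 to 10.15 on day 21. Of 11 endothelial markers the mean was 6.28 to 6.64, 6.91 to 7.13 and 5.63 to 6.07 on days 2, 7 and 21, and of 11 cartilage markers 6.09 to 7.03, 4.22 to 4.70 and 5.74 to 7.39. The mesothelial markers behaved likewise, at 5.93 to 6.29, 4.92 to 5.69 and 5.87 to 6.59. The epithelial list was at 6.59 to 6.86, 5.96 to 6.59 and 6.75 to 7.22, the granulocyte and mast cell list at 4.42 to 5.14 on day 7 and 5.66 to 7.47 on the other days, and smooth muscle and pericyte markers at 7.39 to 7.92 on day 2, 7.73 to 7.99 on day 7 and 7.42 to 7.79 on day 21. On day 21 against day 2, 4 of the 7 granulocyte and mast cell markers were higher and 2 lower. Of these markers, S100a9 had a mean of 10.25 on day 2 and 7.38 on day 21, and Cpa3 of 4.9 and 8.78. The lymphocyte list mean was 4.18 to 4.31 on day 2, 3.99 to 4.24 on day 7 and 4.49 to 4.70 on day 21, where 3 of 8 markers were higher than on day 7, and 5 of 8, Cd3e among them, lay below the low end of log2 4.25 (the 25th percentile of all values) on each day. The log2 ratio of the 3′ to the 5′ control probe set of beta-actin, a sign of RNA integrity, was 0.51 to 0.80, 0.71 to 1.18 and 0.49 to 0.73 on the same days. In such bulk samples fewer cells of a type and less RNA per cell cannot be told apart.

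**Figure D1:**
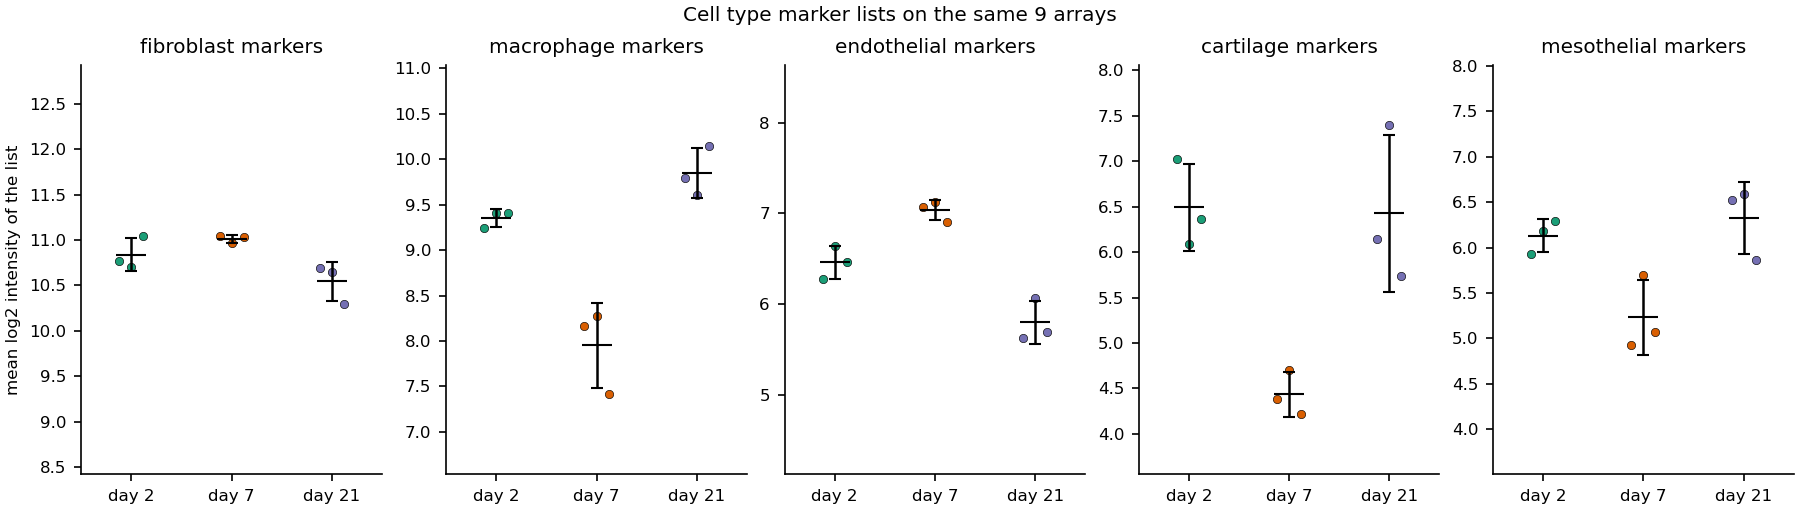
Mean log2 intensity of 5 marker lists (fibroblast, macrophage, endothelial, cartilage and mesothelial genes) on each of the 9 arrays by postnatal day, with the mean and SD of the 3 arrays of a day as bars. Macrophage, cartilage and mesothelial lists were lowest on day 7, where the endothelial list was highest. The fibroblast list was lowest on day 21, at 10.30 to 10.69, against 10.71 to 11.05 on days 2 and 7.

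Wnt2, the mesenchymal ligand, had the widest range of the 10 genes. Its log2 intensity was 6.58, 6.16 and 6.90 on the day 2 arrays, 7.67, 7.48 and 8.36 on the day 7 arrays and 3.80, 4.61 and 4.44 on the day 21 arrays. The days did not overlap, and every day 21 value lay below every day 2 value. Wnt2 was 2.44-fold higher on day 7 than on day 2 (a difference of 1.29 ± 0.28 on the log2 scale, SE with 3 arrays in each group, limma adjusted p = 0.0147). It fell 11.7-fold on day 21 against day 7 (log2 change -3.55 ± 0.28, limma adjusted p = 3.18e-06) and stood 4.81-fold below day 2 (log2 change -2.27 ± 0.28, limma adjusted p = 0.000222). The day 21 mean of 4.28 ± 0.42 (SD, n = 3) was at the low end of log2 4.25, so the folds that involve day 21 rest on a level near background. A dimmer Wnt2 probe set, designed from the same transcript accession, changed by 1.49, -3.57 and -2.09 in the same comparisons and was called in each.

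Wnt5a, a ligand best known for signalling without beta-catenin, took another course. It measured 5.45, 5.32 and 5.63 on day 2, 6.89, 7.12 and 6.04 on day 7, and 6.81, 7.18 and 6.37 on day 21 (log2 intensity). All arrays of days 7 and 21 lay above those of day 2, while days 7 and 21 overlapped. Wnt5a was 2.32-fold higher on day 7 than on day 2 (log2 change 1.22 ± 0.27, limma adjusted p = 0.0176) and 2.49-fold higher on day 21 than on day 2 (1.32 ± 0.27, limma adjusted p = 0.00604). Between day 21 and day 7 the log2 difference was 0.10 with a 95% interval of -0.49 to 0.70 (limma adjusted p = 0.825). Wnt5a was the 1 member whose day 21 level was called higher than its day 2 level, against 8.8% of all genes called higher in that comparison.

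Wnt4, a ligand of epithelium and mesenchyme in several organs, was dim and varied little. Its log2 intensity was 5.06, 4.79 and 5.10 on day 2, 5.58, 5.24 and 5.43 on day 7 and 4.88, 5.15 and 4.67 on day 21. The day 7 arrays lay above all others, and days 2 and 21 overlapped. It fell on day 21 against day 7 by 0.52 ± 0.17 on the log2 scale (1.43-fold, limma adjusted p = 0.0405), while the change of day 7 from day 2 was 0.43 ± 0.17 (limma adjusted p = 0.163). The fall of Wnt4 was no longer called when day 21 replicate 1 (adjusted p = 0.095) or 3 (0.147) was left out, nor without day 7 replicate 1 (0.133) or 3 (0.0836) and without day 2 replicate 1 (0.0506). Over all alternatives tried the adjusted p ran from 0.0221 to 0.147.

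Within an array, the log2 ratio of Wnt2 to Wnt5a moved by -3.65 on day 21 against day 7, lying between -3.01 and -1.94 on day 21 and between 0.36 and 2.32 on day 7. The ranges did not overlap, and the exact two-sided permutation p was 0.10, the smallest that 3 against 3 arrays can give (0.129 after adjustment over 9 tests of 3 ratios, chosen after the values were seen). On day 7 against day 2 that ratio moved by 0.07, with overlapping ranges of 0.36 to 2.32 and 0.83 to 1.27 (exact permutation p = 1).

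**Figure D2:**
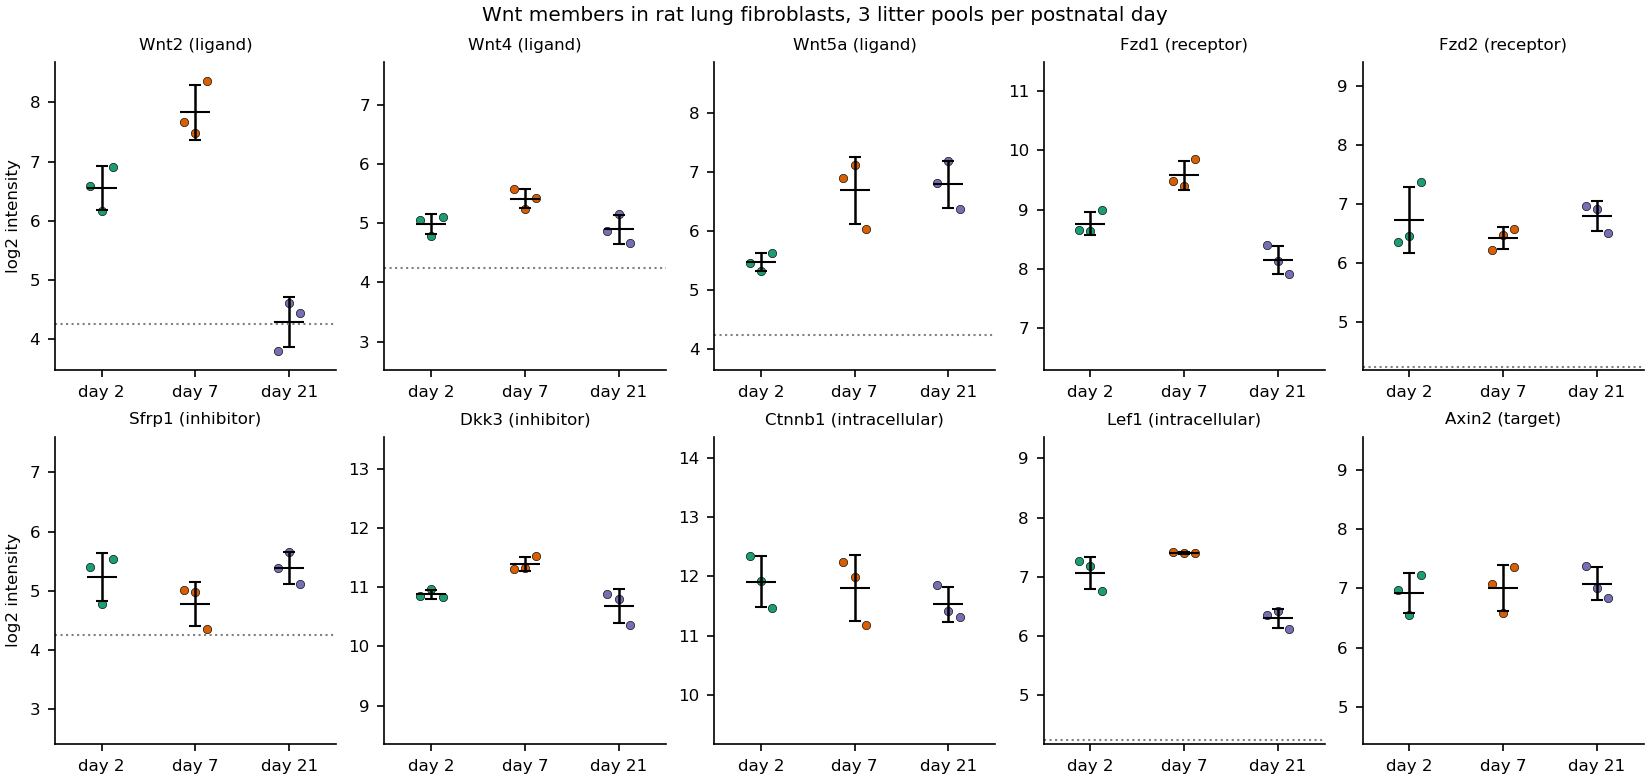
Log2 intensity of each of the 10 genes on the 9 arrays, by postnatal day. Points are arrays, bars the mean and SD of 3 arrays, every panel spans the same number of log2 units, and the dotted line marks the low end at log2 4.25. Wnt2, Wnt4, Fzd1, Dkk3 and Lef1 have their highest arrays on day 7, and Wnt5a stays up on day 21.

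Fzd1, a Frizzled receptor, followed the course of Wnt2 at a smaller size. Its log2 intensity was 8.66, 8.64 and 8.99 on day 2, 9.48, 9.40 and 9.86 on day 7, and 8.39, 8.13 and 7.92 on day 21. The 3 days did not overlap. Fzd1 rose 1.77-fold on day 7 against day 2 (log2 change 0.82 ± 0.19, limma adjusted p = 0.018) and fell 2.71-fold on day 21 against day 7 (-1.44 ± 0.19, limma adjusted p = 0.000104). On day 21 it was 1.53-fold below day 2 (-0.62 ± 0.19, limma adjusted p = 0.0376). That last call was lost when any of the 3 day 2 arrays, or day 21 replicate 2 or 3, was left out, with adjusted p of 0.0628, 0.0639 and 0.117 without day 2 replicates 1, 2 and 3 and of 0.0886 and 0.131 without day 21 replicates 2 and 3 (0.0221 to 0.131 over all alternatives).

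Fzd2, a related Frizzled receptor, passed in no comparison. It measured 6.36, 6.45 and 7.37 on day 2, 6.22, 6.48 and 6.59 on day 7 and 6.97, 6.92 and 6.51 on day 21 (log2 intensity), and all days overlapped, with day 2 replicate 3 the highest array. The log2 changes were -0.30 (95% interval -0.85 to 0.25) on day 7 against day 2, 0.37 (-0.18 to 0.92) on day 21 against day 7 and 0.07 (-0.48 to 0.62) on day 21 against day 2. Within an array the log2 ratio of Fzd1 to Fzd2 was 2.92 to 3.27 on day 7 and 1.62 to 2.30 on day 2, a move of 1.12 (exact permutation p = 0.10, the smallest possible). On day 21 it was 1.21 to 1.43, a move of -1.81 from day 7 with the same exact permutation p of 0.10. This ratio too was chosen after the values were seen, and each permutation p was 0.129 after adjustment over the 9 tests.

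Of the secreted modulators, Sfrp1 binds Wnt proteins through a Frizzled-like domain, and Dkk3 belongs to the Dickkopf family although its role in Wnt signalling is less clear than that of its relatives. Sfrp1 measured 5.40, 4.77 and 5.53 on day 2, 5.01, 4.97 and 4.36 on day 7 and 5.39, 5.66 and 5.12 on day 21 (log2 intensity). The day 21 arrays lay above those of day 7, and day 2 overlapped both. Its changes missed the threshold, at -0.45 ± 0.24 on day 7 against day 2 (limma adjusted p = 0.32) and 0.61 ± 0.24 on day 21 against day 7 (limma adjusted p = 0.0844). After a further quantile normalization the second was 0.69 (adjusted p = 0.0125), and after centring of the arrays on their medians it was 0.72 (adjusted p = 0.0141), so both scalings placed Sfrp1 past the threshold, in the direction opposite to the members that fell. Its adjusted p ran from 0.0125 to 0.282 over all alternatives. The other 2 Sfrp1 probe sets lay close to or below the low end and were not called.

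Dkk3 measured 10.85, 10.97 and 10.83 on day 2, 11.31, 11.33 and 11.54 on day 7 and 10.89, 10.80 and 10.36 on day 21. The day 7 arrays stood above the rest. Dkk3 fell 1.64-fold on day 21 against day 7 (log2 change -0.71 ± 0.17, limma adjusted p = 0.00649), and its change on day 7 against day 2 was 0.51 ± 0.17 (limma adjusted p = 0.0886). This rests on the brightest of 4 Dkk3 probe sets. The other 3, which are far dimmer, were not called in any comparison of days, with changes of 0.59, -0.19 and 0.25 on day 21 against day 7, and the mean over all 4 changed by -0.015 (adjusted p = 0.944). The changes of 0.59 and 0.25 ran opposite to the fall, and that of -0.19 ran with it. Single dimmer probe sets were not among the alternatives tried.

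Ctnnb1, the gene of beta-catenin, was bright on every day. Its representing probe set measured 12.35, 11.92 and 11.47 on day 2, 12.25, 11.99 and 11.18 on day 7 and 11.86, 11.41 and 11.32 on day 21, with all days overlapping and a spread within a day of 0.29 to 0.56 (SD of log2 intensity). None of its changes passed, the largest being -0.38 ± 0.29 on day 21 against day 2 (limma adjusted p = 0.384). The next brightest of its 4 probe sets differed in its calls. It measured 11.78, 11.34 and 11.19 on day 2, 11.78, 11.85 and 11.50 on day 7 and 10.86, 10.85 and 10.71 on day 21, so that every day 21 array lay below all others. That probe set fell by 0.91 ± 0.18 on day 21 against day 7 (limma adjusted p = 0.0021) and by 0.63 ± 0.18 on day 21 against day 2 (limma adjusted p = 0.0288). The remaining Ctnnb1 probe sets were not called.

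**Figure D3:**
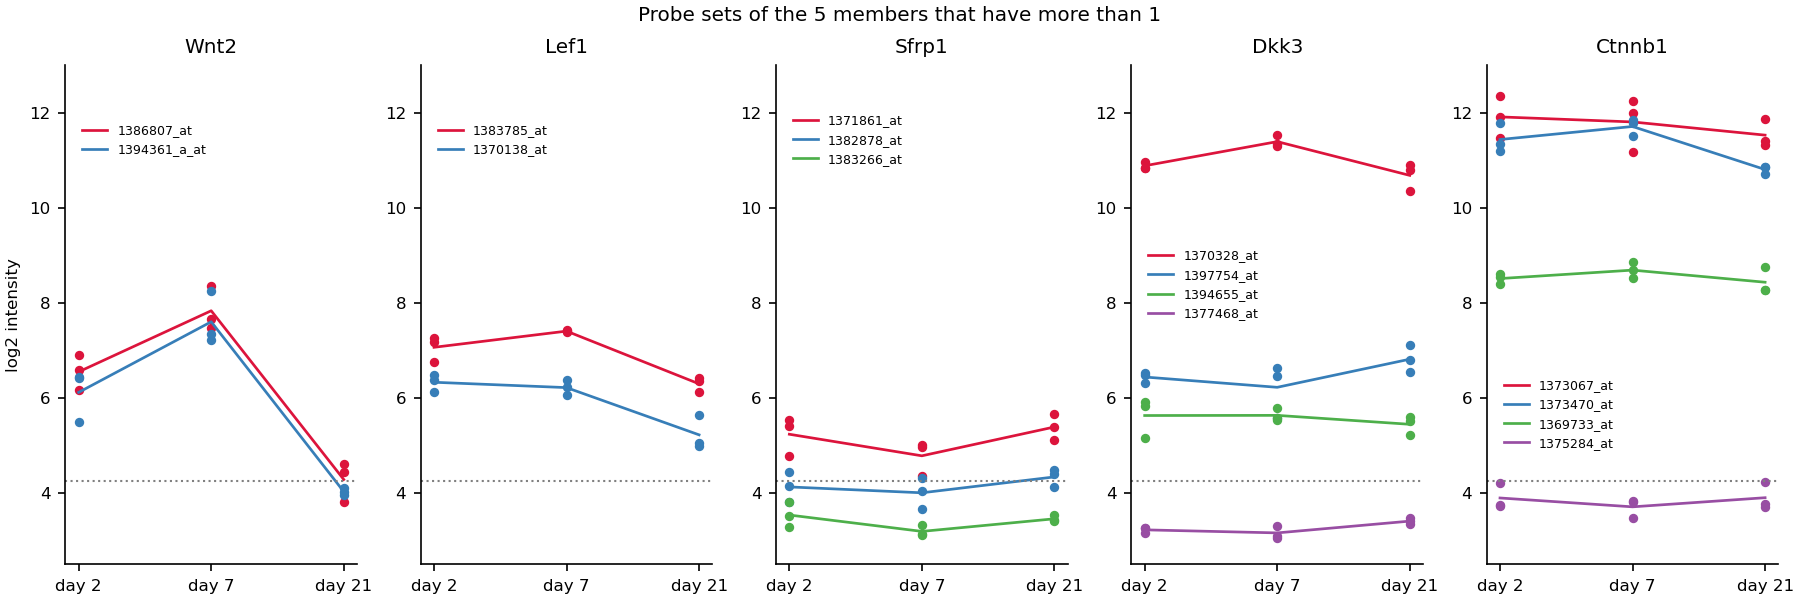
Log2 intensity of every probe set of the 5 genes with more than 1, by postnatal day. Points are arrays, lines join the day means, and the dotted line is the low end at log2 4.25. The probe sets of Wnt2 run in parallel and both Lef1 probe sets fall to day 21, whereas the probe sets of Dkk3 and Ctnnb1 differ in course.

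Lef1, a transcription factor that carries beta-catenin to DNA, changed on both of its probe sets. Its log2 intensity was 7.26, 7.18 and 6.76 on day 2, 7.42, 7.40 and 7.39 on day 7 and 6.35, 6.43 and 6.11 on day 21. The days did not overlap, and the day 7 arrays were nearly equal. Lef1 fell 2.16-fold on day 21 against day 7 (log2 change -1.11 ± 0.17, limma adjusted p = 0.000313) and was 1.70-fold lower on day 21 than on day 2 (-0.77 ± 0.17, limma adjusted p = 0.00771). The change of 0.34 ± 0.17 on day 7 against day 2 did not pass (limma adjusted p = 0.267). Its dimmer probe set fell as well, by 0.99 and 1.11 on day 21 against days 7 and 2.

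Axin2, the canonical target and feedback inhibitor, passed in no comparison. It measured 6.97, 6.55 and 7.22 on day 2, 7.08, 6.59 and 7.36 on day 7, and 7.38, 7.01 and 6.84 on day 21 (log2 intensity). The days overlapped throughout. The 95% intervals of its log2 changes were -0.42 to 0.61 on day 7 against day 2, -0.45 to 0.58 on day 21 against day 7 and -0.35 to 0.68 on day 21 against day 2, so changes of up to 0.68 remain within the error. Within an array the log2 ratio of Lef1 to Axin2 was -1.04 to -0.58 on day 21 and 0.03 to 0.81 on day 7, a move of -1.18 with no overlap (exact permutation p = 0.10, the smallest possible, and 0.129 after adjustment over the 9 tests). On day 7 against day 2 it moved by 0.24, with overlapping ranges (exact permutation p = 0.6). This ratio too was chosen after the values were seen.

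The sequence before the start of Axin2 is shown because it is the member known as a direct target, and those of Wnt2, Fzd1 and Lef1 because these genes fell together on day 21. They come from RefSeq on build GRCr8, and the set of promoters used here held an entry for 7 of the 10 genes. Each sequence gives the 250 bases before the annotated start, 5′ to 3′ on the strand of the gene. Capitals mark matches to the LEF/TCF core, searched on both strands as CTTTG followed by 2 bases that are each A or T.
Axin2, chr10:94398535-94398784, plus strand: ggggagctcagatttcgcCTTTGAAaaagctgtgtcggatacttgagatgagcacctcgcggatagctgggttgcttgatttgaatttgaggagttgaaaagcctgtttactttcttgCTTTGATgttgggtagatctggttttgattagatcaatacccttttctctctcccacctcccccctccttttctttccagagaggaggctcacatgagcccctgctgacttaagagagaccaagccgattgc
Wnt2, chr4:47340285-47340534, minus strand: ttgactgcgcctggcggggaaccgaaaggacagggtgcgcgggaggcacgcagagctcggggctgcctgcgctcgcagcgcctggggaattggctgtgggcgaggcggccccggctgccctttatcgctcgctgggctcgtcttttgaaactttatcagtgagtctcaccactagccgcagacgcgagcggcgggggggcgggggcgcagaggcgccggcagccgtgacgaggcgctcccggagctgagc
Fzd1, chr4:30264824-30265073, plus strand: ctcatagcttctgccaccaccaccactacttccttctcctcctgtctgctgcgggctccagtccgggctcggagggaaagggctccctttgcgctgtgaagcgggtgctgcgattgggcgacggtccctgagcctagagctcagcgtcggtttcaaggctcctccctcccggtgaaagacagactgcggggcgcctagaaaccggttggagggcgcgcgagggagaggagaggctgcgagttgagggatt
Lef1, chr2:222340463-222340712, plus strand: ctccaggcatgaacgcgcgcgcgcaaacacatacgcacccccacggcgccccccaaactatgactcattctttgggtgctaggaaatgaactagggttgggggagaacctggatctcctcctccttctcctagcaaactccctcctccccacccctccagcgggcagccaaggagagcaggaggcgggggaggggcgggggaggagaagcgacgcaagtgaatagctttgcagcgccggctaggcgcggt
The Axin2 window held 2 matches, beginning 232 and 132 bases before the start, and the windows of the other 6 genes held none of these letters. Of 33469 promoters of this length in the table, 14.9% held at least 1 match, against 1 of the 7 members (14.3%). The matches are a description of letters and not of binding.

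As a set, 3 of the 10 genes were higher on day 7 than on day 2 (Wnt2, Wnt5a and Fzd1) and 0 were lower, where limma called 7.02% of all genes higher and 4.41% lower (11.4% in either direction). At an unadjusted limma p under 0.05 the counts were 5 and 0, where 2451 of all 14217 genes were higher and 1354 lower. The median log2 change of the 10 was 0.39, against 0.07 over all genes. In this comparison 6 of 10 had arrays that did not overlap, against 33% of all genes. Without day 2 replicate 2 the count of calls was 0, with adjusted p of 0.0662 for Wnt2, 0.0693 for Wnt5a and 0.0739 for Fzd1. In that setting 486 of all 14217 genes were called higher and 384 lower, against 998 and 627 with all arrays. The Wnt5a call was also lost without day 7 replicate 1 (0.0643) or day 7 replicate 2 (0.0709), and the Fzd1 call without day 2 replicate 1 (0.0562), without day 7 replicate 3 (0.0601) or with centred arrays (0.0774). Over all alternatives the adjusted p ran from 0.00569 to 0.0662 for Wnt2, from 0.00488 to 0.0709 for Wnt5a and from 0.00832 to 0.0774 for Fzd1. Of the macrophage markers 9 of 14 fell in the same comparison and 0 rose, of the cartilage markers 6 of 11 fell, and 3 of 11 endothelial markers rose.

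On day 21 against day 7, 5 of the 10 genes fell (Wnt2, Wnt4, Fzd1, Dkk3 and Lef1) and 0 rose, where 24.4% of all genes fell and 13.7% rose by limma (38.1% in either direction). At an unadjusted limma p under 0.05, 5 were lower and 1 higher, where 4126 of all 14217 genes were lower and 2619 higher. The median log2 change was -0.40, against -0.01 over all genes, and 6 of 10 genes had arrays that did not overlap, against 51.2% of all genes. The Dkk3 call rests on the brightest of its 4 probe sets, whose mean changed by -0.015 (limma adjusted p = 0.944). The Wnt4 call was lost when some single arrays were left out (limma adjusted p up to 0.147). The next brightest Ctnnb1 probe set, not counted here, fell by 0.91 (limma adjusted p = 0.0021). With arrays centred or quantile normalized, 1 member rose (Sfrp1) and 4 fell. In these settings 2350 and 2825 of all genes rose and 2704 and 3073 fell. In the same comparison 13 of 14 macrophage markers rose, 7 of 11 cartilage markers rose, 8 of 11 endothelial markers fell, and of the 16 fibroblast markers 6 fell and 2 rose. On day 21 against day 2, Wnt5a was higher and Wnt2, Fzd1 and Lef1 were lower, 3 of 10 where 15.3% of all genes were lower (24.1% were called in either direction). Arrays did not overlap for 4 of 10, against 43% of all genes. The comparisons share arrays, so these counts are not independent of each other, and the 10 genes were chosen with earlier results of these arrays known.

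When day 7 was set against the mean of days 2 and 21, Wnt2, Wnt4, Fzd1, Dkk3 and Lef1 were higher, 5 of 10 where 20.6% of all genes were higher, and limma called 0 lower where 9.93% of all genes were lower (30.5% in either direction). At an unadjusted limma p under 0.05, 6 of the 10 were higher and 1 lower, where 3707 of all 14217 genes were higher and 2008 lower. Wnt2 stood 2.42 ± 0.24 above that mean on the log2 scale (limma adjusted p = 3.6e-05) and Fzd1 1.13 ± 0.16 (limma adjusted p = 0.000334). Lef1 stood 0.73 ± 0.14 above it, Dkk3 0.61 ± 0.15 and Wnt4 0.47 ± 0.15. The Wnt4 call was lost without day 2 replicate 2, day 7 replicate 1 or 3, or day 21 replicate 1 or 3 (adjusted p = 0.0681 to 0.163). The Dkk3 value over all 4 of its probe sets was 0.036 (adjusted p = 0.864). The dimmer Lef1 probe set was not called (0.44, limma adjusted p = 0.0856), while the next brightest Ctnnb1 probe set was called higher (0.59, limma adjusted p = 0.0153). With centred arrays 3 of them were called higher, without Wnt4 and Dkk3, and Sfrp1 was called lower. In that setting 2024 of all 14217 genes were higher and 1644 lower.

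**Figure D4:**
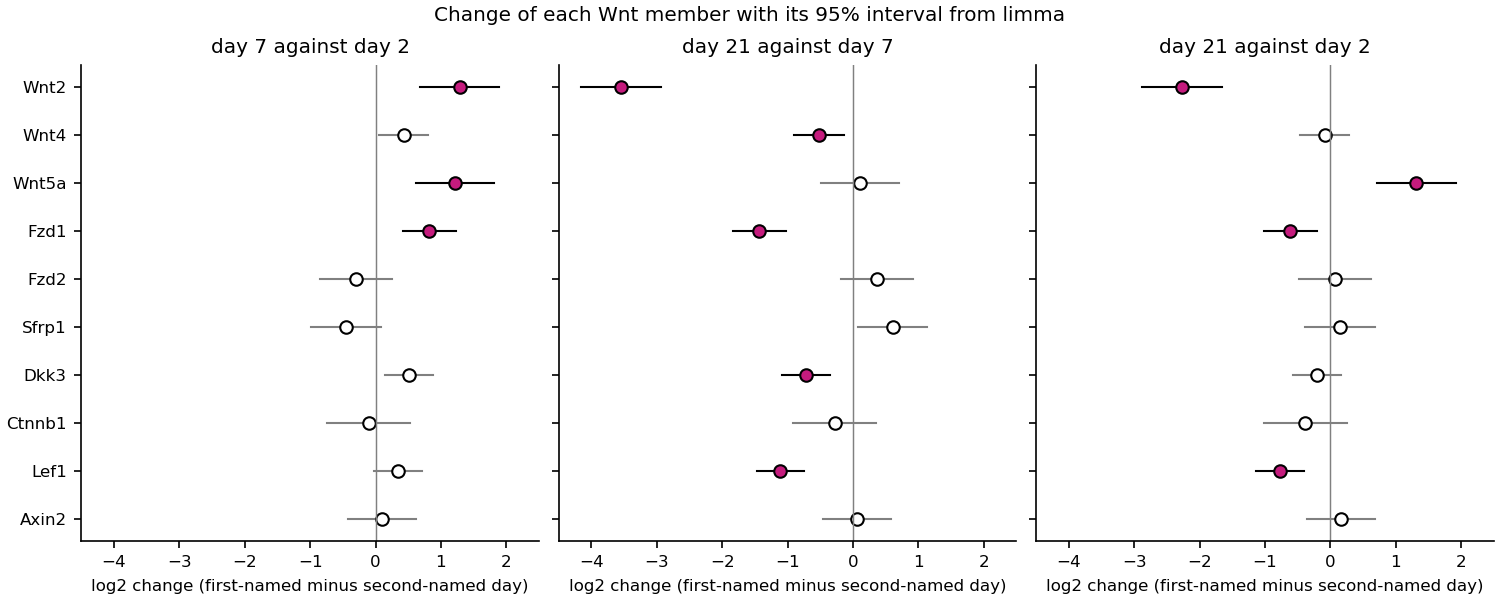
Log2 change of each of the 10 genes in 3 comparisons of days, the first-named day minus the second, with 95% intervals from limma. Filled points passed an adjusted p of 0.05 and open points did not. Wnt2 has the widest shifts, -3.55 on day 21 against day 7, while Fzd2, Sfrp1, Ctnnb1 and Axin2 have open points in all panels.

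The wider pathway was described with 99 measured genes outside the 10, of 123 written down. On day 7 against day 2, 14 of them rose (14.1%, where 7.02% of all genes rose) and 5 fell (5.05%, where 4.41% fell), with a median log2 change of 0.11. Of 13 inhibitors 5 rose and 0 fell. They were Znrf3, a ligase that removes Frizzled from the membrane (log2 change 1.33 ± 0.33, limma adjusted p = 0.0283), Apcdd1, a membrane inhibitor (1.03), Wif1, which binds Wnt proteins (0.88), and the Dishevelled antagonists Nkd1 (0.77) and Nkd2. Apcdd1 measured 7.87, 8.27 and 8.26 on day 7 and 6.92, 7.07 and 7.31 on day 2. Nkd1 measured 8.99, 8.98 and 8.76 on day 7 and 8.07, 8.21 and 8.14 on day 2, and neither gene had overlapping days.

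Among 14 other ligands and secretion genes, Wnt9a (0.82 ± 0.18, limma adjusted p = 0.0154) and Wls, the carrier that brings Wnt proteins to the cell surface (0.66), rose on day 7 against day 2. The receptor-like Ptk7, of the planar polarity branch, rose by 0.78 and the polarity gene Prickle1 by 0.91. Bcl9l, a partner of beta-catenin (0.90), Cby1, which antagonises it (0.89), and the co-repressor Tle2 (0.68) rose, while the co-repressor Tle3 fell (-0.77). Of 18 targets from other tissues, Fgf18 (0.94) and Tbx3 rose, and Fosl1 (-1.33), Nrcam (-1.17) and the adhesion receptor Cd44 (-0.97) fell. The count of 14 dropped to 8, 3 and 6 without day 2 replicates 1, 2 and 3 and to 4, 6 and 7 without day 7 replicates 1, 2 and 3, and that of 5 to 3 without day 7 replicate 1 or 2. With centred arrays 7 rose and 5 fell, where 481 of all 14217 genes rose and 693 fell. With all arrays 998 of all genes rose, against 693, 486 and 577 without day 2 replicates 1, 2 and 3. Without day 7 replicates 1, 2 and 3, 506, 554 and 658 of all genes rose. Over all genes 627 fell with all arrays, and 456 and 431 without day 7 replicates 1 and 2. Camk2d, a calcium-dependent kinase, was the other of the 5 pathway genes that fell (-0.66).

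On day 21 against day 7, 29 of the 99 genes fell (29.3%, where 24.4% of all genes fell) and 14 rose (14.1%, where 13.7% rose), shares near those of all genes, with a median log2 change of -0.13. Ptk7 had 6.75, 6.51 and 6.18 on day 21 and 9.91, 9.73 and 10.02 on day 7, a fall of 10.6-fold (log2 change -3.40 ± 0.17, limma adjusted p = 1.9e-07). Prickle1 had 6.82, 6.68 and 6.10 on day 21 and 10.02, 9.71 and 10.32 on day 7, a fall of 11.2-fold (-3.48 ± 0.22, limma adjusted p = 6.8e-07). Both genes act in planar cell polarity. Ptk7 was counted with the receptors, and of the 16 genes counted under planar polarity and calcium, Prickle1 among them, 6 fell and 1 rose. Vangl1 (-1.33), Prickle2 (-1.25) and the calcium-regulated factor Nfatc3 (-1.18) also fell.

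Of 12 other receptors, 5 fell and 1 rose on day 21 against day 7, among them Ryk, a Wnt receptor with an inactive kinase domain (-1.19 ± 0.16, limma adjusted p = 0.000124), Fzd3 (-1.14, to a day 21 mean of 3.99, below the low end) and the R-spondin receptor Lgr5 (-0.83). Wls (-0.98) and Wnt5b (-0.84) fell among ligands and secretion genes. Of the 13 inhibitors 6 fell and 2 rose. Sfrp2, a secreted relative of Sfrp1, rose, at 9.05, 8.15 and 7.82 on day 21 against 6.36, 6.57 and 6.57 on day 7 (1.84 ± 0.30, limma adjusted p = 0.000571). Nkd2 (-1.29), Znrf3 (-1.22) and Sostdc1 (-0.96, to 3.83) fell. In the cytoplasmic and nuclear group Bcl9l (-1.66), Cby1 (-1.40), Ctnnbip1, which blocks beta-catenin (-1.06), and the factor Tcf7 (-1.04) fell, 6 of 26 in all, and 4 rose, near the 24.4% of all genes that fell and 13.7% that rose. No role was tested against all genes.

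Targets were divided on day 21 against day 7. Of 18, 6 rose, led by Fosl1 (2.34 ± 0.23, limma adjusted p = 1.66e-05) and Cd44 (1.46), and 4 fell, led by the cyclin Ccnd1 (-1.77 ± 0.30, limma adjusted p = 0.00067) and the angiogenic factor Vegfa (-1.25). Over all genes 13.7% rose and 24.4% fell in this comparison, and the targets were not tested against them. On day 21 against day 2, 16 of the 99 genes were lower (15.3% of all genes were) and 10 higher (8.8% of all genes were). Ptk7 (-2.63) and Prickle1 (-2.57) were the most reduced and Twist1, a mesenchymal factor (1.60), Fgf18 (1.55), Sfrp2 (1.16) and Wnt11 (1.02) the most raised of the genes named. The count of 10 was 5, 5 and 6 without day 2 replicate 1, day 2 replicate 2 and day 21 replicate 2, and that of 16 was 10 without day 21 replicate 3. Of all 14217 genes 1251 were higher with all arrays, and 925, 709 and 876 without those first 3 arrays in turn. Over all genes 2176 were lower with all arrays and 1652 without day 21 replicate 3.

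**Figure D5:**
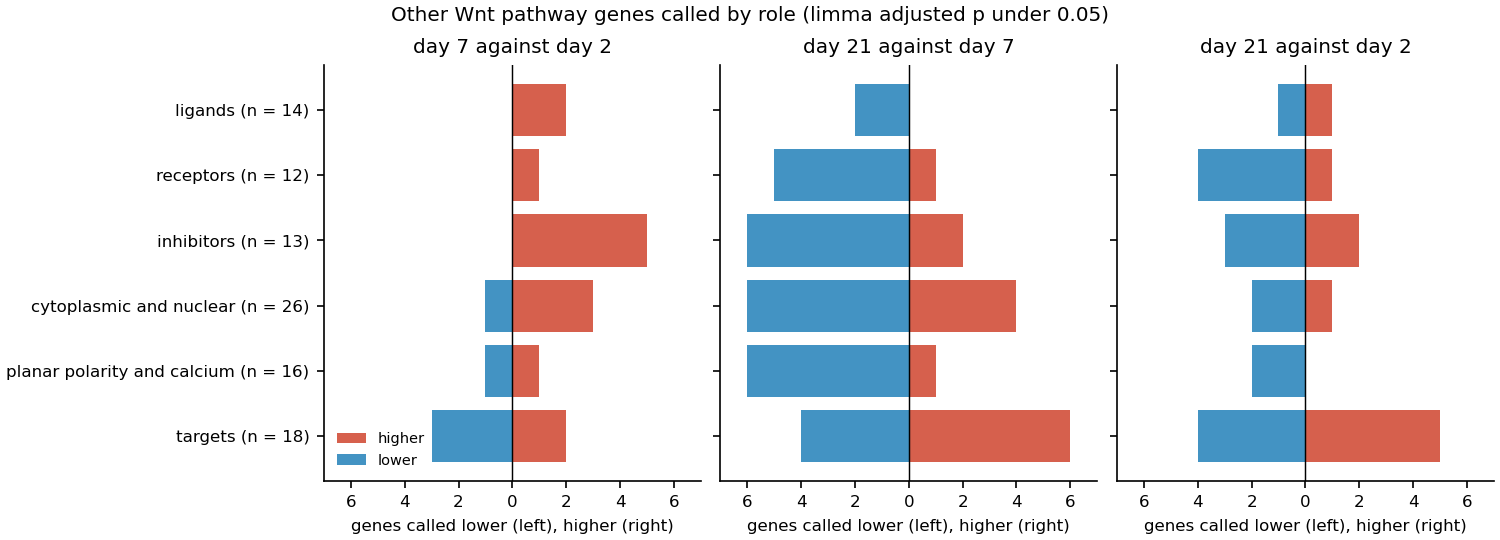
Number of the 99 other Wnt pathway genes called higher (right of 0) or lower (left of 0) at a limma adjusted p under 0.05, by role and comparison, with the number measured beside each role. On day 7 against day 2 the called inhibitors were all higher (5 of 13), where 7.02% of all genes were higher and 4.41% lower. On day 21 against day 7 genes called lower outnumber those called higher in every role but the targets (4 lower and 6 higher), where 24.4% of all genes were lower and 13.7% higher.

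Likeness of course was ranked by Pearson's r over the 9 arrays among 13979 other genes, as a description in which the points share their days and arrays. The nearest 3 genes of each member reached 0.921 to 0.993. Nearest to Wnt2 were Copg2, Ryk and Mex3a (0.993, 0.992 and 0.992), to Fzd1 Ankmy2, Tsnax and Igdcc4 (0.992, 0.992 and 0.988), and to Lef1 Spats2, Slc44a1 and Srpk2 (0.993, 0.991 and 0.990). Dkk3 lay nearest to Cavin3, Zxda and Mylk (0.983, 0.980 and 0.979), Wnt4 to Susd6 (0.974) and Wnt5a to Dhx32 (0.970). Among the 10 genes themselves Fzd1 had an r of 0.93 with Dkk3, 0.92 with Wnt2 and 0.85 with Lef1, while Axin2 stayed between -0.31 and 0.47 with every other member and Wnt5a between -0.23 and 0.32.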

How the data were processed

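Expression was measured on 9 Affymetrix arrays of 3 litter pools each at postnatal days 2, 7 and 21. The authors deposited probe set intensity values on a linear scale, which the submitters' processing notes tie to RMA and affy. For versions, probe set definitions and filters the sources used here say nothing. RMA compresses changes of dim probe sets, and array medians still differed (log2 5.24 to 5.66). Of 31099 probe sets, 57 controls were left out. Of the 31042 tested, 20826 had 1 gene symbol, 436 several and 9780 none here, and 20758 symbols were found in the RefSeq gene table by Entrez number, with 0 changed. No 2 arrays were identical.

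Log2 intensities were fitted by limma 3.58.1 under R 4.3.3 (functions lmFit, contrasts.fit and eBayes, all 9 arrays in 1 fit with a mean for each day, 6 residual and 5.69 prior degrees of freedom). Genes were called at a two-sided Benjamini-Hochberg adjusted p under 0.05 over all probe sets of a comparison. Errors are SEs unless given as SD. The limma p-values rest on the spread between litters within a day, pooled over the 3 days and moderated over probe sets by eBayes. Litters were taken as independent across days. Precision is limited by having 3 arrays a day. The procedure was tested on simulated data. Within-array ratios were compared with exact two-sided permutation tests over samples.

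All 10 members are named. Of the other pathway genes up to 4 called per role and comparison with the largest change could be named, of marker genes those that define a cell type, and for likeness the 3 genes with the highest r for each member, leaving out symbols starting LOC, RGD or MGC. Nkd2 on day 7 against day 2 and Tbx3, named to complete a count, and the 3 within-array ratios were chosen after their values were seen. Members and lists were chosen with earlier results of these data known. Alternatives were another scaling, a pseudocount of 16, a filter on dim probe sets, the mean over probe sets, the litter number as a block, fewer days in the fit and leaving out each array.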

Additional observations from a re-analysis of the deposited data

How the results depend on the processing

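With 3 arrays a day, leaving out 1 also lowers precision, and the cause of a lost call was not tested. Called changes of the 10 genes kept their direction in every alternative. Dkk3 on day 21 against day 7 did so by only -0.015 with averaged probe sets. Calls of Wnt2 and Lef1 on day 21 against days 7 and 2 also held. So did those of Fzd1 on day 21 against day 7 and Wnt5a on day 21 against day 2. Leaving out each array in turn gave 0 to 4 members higher on day 7 against day 2 and, for the other pathway genes, 3 to 14 higher and 3 to 6 lower in that comparison and 5 to 10 higher and 10 to 19 lower on day 21 against day 2. For day 7 against the mean of days 2 and 21 it gave 0 to 1 member lower, where 1101 to 1384 of all 14217 genes were lower. Over all genes it gave 486 to 1049 higher and 384 to 672 lower on day 7 against day 2. On day 21 against day 2 it gave 709 to 1471 of all genes higher and 1581 to 2275 lower. With arrays centred on their median, 7 other pathway genes were higher on day 7 against day 2, 1 member (Sfrp1) was higher on day 21 against day 7, and 3 members were higher and 1 lower on day 7 against the mean of days 2 and 21. A further quantile normalization also gave 1 member higher on day 21 against day 7 and 1 lower on day 7 against that mean. Centring moved the median of all genes on day 21 against day 7 to 0.10, against -0.01 as deposited, and on day 7 against the mean of the other days to -0.06, against 0.04 as deposited. The share of calls that were higher, over all genes, was 61.4% as deposited and 41.0% centred on day 7 against day 2, and 36.0% as deposited, 47.9% after quantile normalization and 46.5% centred on day 21 against day 7. It was 36.5% as deposited and 49.3% after quantile normalization on day 21 against day 2, and 67.5%, 57.1% after quantile normalization and 55.2% centred on day 7 against the mean. Among the other pathway genes 19 rose and 27 fell on day 21 against day 7 (18 and 27 with centred arrays) and 15 rose and 17 fell on day 21 against day 2 after quantile normalization.

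Changes that were not called turned sign in some settings. With centred arrays Axin2 changed by -0.00071 on day 7 against day 2 and by -0.089 on day 7 against the mean of the other days, where Ctnnb1 changed by -0.018, and with quantile normalization Axin2 changed by -0.12 there. With the mean over probe sets Ctnnb1 changed by 0.040 on day 7 against day 2 and Dkk3 by 0.043 on day 21 against day 2. Leaving out arrays gave ranges on day 7 against day 2 of -0.48 to 0.021 for Fzd2, -0.33 to 0.21 for Ctnnb1 and -0.085 to 0.31 for Axin2. On day 21 against day 7 they were -0.22 to 0.32 for Wnt5a and -0.14 to 0.24 for Axin2. On day 21 against day 2 they were -0.21 to 0.031 for Wnt4, -0.11 to 0.39 for Fzd2, -0.081 to 0.30 for Sfrp1 and -0.018 to 0.32 for Axin2, and for day 7 against the mean -0.13 to 0.40 for Ctnnb1 and -0.16 to 0.23 for Axin2. The labels leave unsaid if days shared litters, and the data did not settle it. Deviations of same-numbered arrays correlated at -0.24 to 0.41, above 0.1 in 2 of 9 pairs, and 8 of 18 checks found the own number best correlated. Between days 2 and 7 the correlations were 0.41, 0.08 and 0.22 for numbers 1, 2 and 3, and pairs with day 21 gave -0.24 to 0.05. With the number as a replicate block, 3 members were higher on day 7 against day 2, 4 were lower on day 21 against day 7 and 2 on day 21 against day 2. Of all 14217 genes the block fit called 863 higher, 3405 lower and 2113 lower in these comparisons. Wnt4 (-0.52, limma adjusted p = 0.0612) and Fzd1 (-0.62, limma adjusted p = 0.0503) missed the threshold there, and so did Wnt4 on day 7 against the mean (0.47, limma adjusted p = 0.0598). Wnt4 on day 21 against day 7 and Fzd1 on day 21 against day 2 also missed it after quantile normalization (adjusted p = 0.0565 and 0.0582) and centring (0.128 and 0.0878).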

Other observations

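Of the 99 other Wnt pathway genes, 25 were higher on day 7 than the mean of days 2 and 21 (25.3%, where 20.6% of all genes were higher) and 8 were lower (8.08%, where 9.93% of all genes were lower). Prickle1 stood 2.20 ± 0.19 above that mean on the log2 scale (limma adjusted p = 1.45e-05, n = 3 arrays per day) and Ptk7 2.09 ± 0.15 (limma adjusted p = 5.75e-06), both genes of planar cell polarity. The 25 included 4 of the 14 ligands and secretion genes. They were Wls (0.82), Wnt5b (0.67), Wnt9a (0.66) and Porcn, the enzyme that attaches the lipid to Wnt proteins (0.52). The other 10 were not called, and the median log2 change of the 14 was -0.028. For Wnt5b and Porcn the day 7 arrays overlapped those of the other days. The receptors Ryk (0.82) and Fzd3 (0.76) were also among the 25. Fosl1 (-1.83), Sfrp2 (-1.26), Cd44 (-1.21) and Nrcam (-1.13) were lower on day 7 than that mean. On day 7 the macrophage, cartilage and mesothelial marker lists were at their lowest, and the endothelial list was at its highest, 6.91 to 7.13 on day 7 against 6.28 to 6.64 on day 2 and 5.63 to 6.07 on day 21. The log2 ratio of the 3′ to the 5′ beta-actin control was 0.71 to 1.18 on day 7, 0.51 to 0.80 on day 2 and 0.49 to 0.73 on day 21. The part of any of these in the values above was not tested.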
